A study of Homo sapiens with 12 samples.

Results

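PANC-1 cells, a human cell line established from a pancreatic ductal adenocarcinoma, were kept under hypoxia either together with tumor-associated macrophages (TAMs, the HPM group, 3 arrays) or alone (the HPC group, 3 arrays), and their mRNA was profiled on 1-colour (Cy3) expression microarrays. These 6 arrays were chosen by their sample titles from a series of 12. The other 6 hold the same pair of conditions under normoxia, namely PANC-1 cells co-cultured with TAMs (NPM) and PANC-1 cells alone (NPC), with 3 arrays each. No gene was selected for the comparison, and all 34487 features of the array entered it.

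The TAMs were not taken from tumors. They were made from the human monocytic line THP-1 by phorbol ester followed by IL-4 and IL-13, which push macrophages towards the alternatively activated (M2) state. In a transwell, whose porous membrane lets secreted factors pass while it holds the cells apart, they shared the medium with the PANC-1 cells for 4 days. The HPC and NPC cells had no second cell type in the well, so that the presence of TAMs and the presence of any other cell cannot be told apart. All groups came from a single cell line, and the sources used here give no oxygen level for the hypoxia. The series describes the samples of each group as independent experiments in triplicate.

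Macrophages in tumors release cytokines that reach the tumor cells and act on them through the transcription factors NF-kB and STAT. NF-kB induces chemokines, survival genes and its own inhibitor NFKBIA, and interferon-gamma works through STAT factors and IRF1 to induce antigen presentation. Low oxygen stabilizes the HIF factors, which induce genes of glycolysis and adaptation. Genes needed for mitosis are transcribed together late in the cell cycle, so that their summed mRNA follows the share of dividing cells. In a bulk sample such as these, fewer cells in a phase or state and less mRNA per cell cannot be told apart.

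Across the 6 arrays the lower quartile of log2 intensity ran only from 7.70 to 7.74 and the upper one from 10.78 to 10.86. Ductal and PANC-1 genes were bright, which goes with the labelled cell type but does not identify the line. Their 19 measured members lay at a median percentile of 77.9 to 82.3 in an HPM array and 81.9 to 83.7 in an HPC array, among all features. KRT8, KRT18 and VIM were above at least 97.3% of the features in every one of the 6 arrays. The leading principal component held 36.6% of the variance, and on it the arrays of a group spread so widely that HPM and HPC overlapped (-21.2 to 65.7 in HPM and -68.2 to 21.2 in HPC). Arrays with the same number deviated together across features (residual correlations of 0.502, 0.267 and 0.543 between HPM and HPC), so that the replicate number was also used as a block.

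Co-culture with TAMs under hypoxia went with lower mRNA of mitotic genes, of which 9 of 33 fell, and of fatty acid synthesis genes, of which 3 of 14 fell. The genes that rose included NGFR, IRF1, CRELD2, CD40 and NFKBIA. By limma with Benjamini-Hochberg adjustment over all features, 120 features rose (0.348% of those tested) and 233 fell (0.676%) in the HPM group at an adjusted p under 0.05. Of these, 165 carried a gene name and stood for 162 genes, with 49 genes higher and 113 lower. More than 2-fold changes made up 288 of the 353. Over all features the log2 fold change had a median of -0.0152, and the smallest adjusted p was 0.0346.

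With the replicate number as a block no feature passed by limma. The adjusted p of the 353 features then lay between 0.0627 and 0.0635, while 4211 features were higher and 5475 lower at an unadjusted p under 0.05. Leaving out any single array also left 0 features past the adjusted threshold. Over all 12 arrays, with each same-numbered pair within an oxygen level as a block and hence more degrees of freedom, 344 of the 353 passed. Every rise or fall named below is a call of the 6-array fit without the block. At an unadjusted p under 0.05 that fit had 2760 features higher (8.00%) and 4298 lower (12.5%), and these shares are the background for the counts of gene groups.

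**Figure D1:**
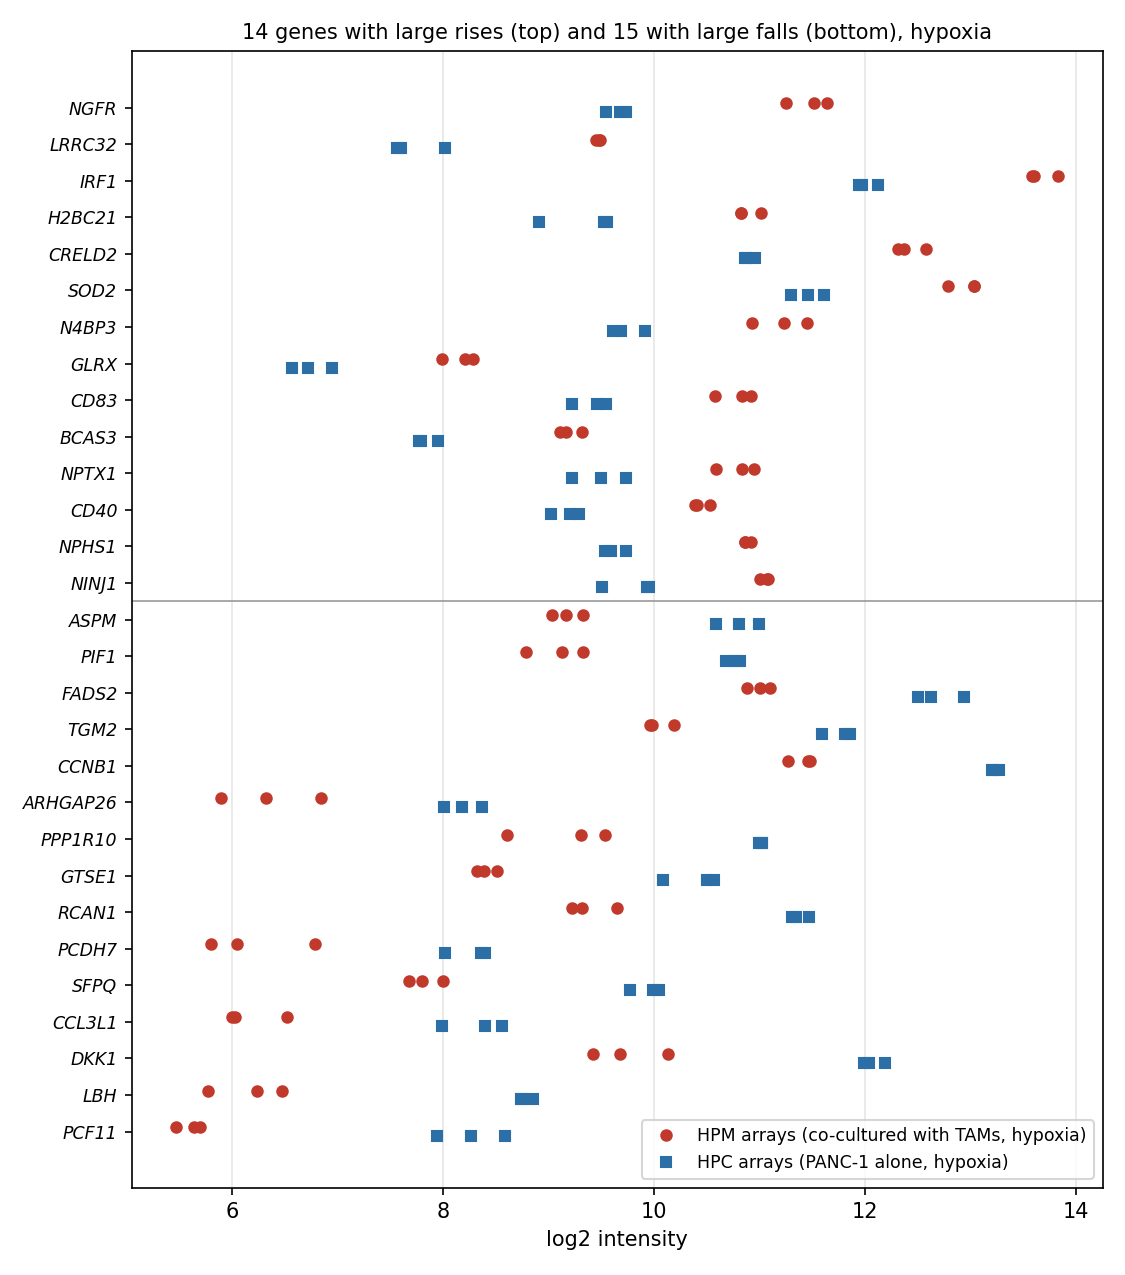
Log2 intensity (x axis) of 14 genes among the 15 with the largest rise (top) and of the 15 with the largest fall (bottom) of those that passed in HPM against HPC. Each point is an array, with HPM arrays as red circles and HPC arrays as blue squares, and the points of the groups stand apart for all 29 genes, which were chosen on that condition.

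Among the genes with the largest rises were receptors and surface proteins of immune signalling. NGFR, the low-affinity neurotrophin receptor of the TNF receptor superfamily, had log2 intensities of 11.64, 11.51 and 11.25 in the HPM arrays, against 9.73, 9.68 and 9.54 in the HPC arrays. The 2 groups were far apart, and by limma the 3.53-fold rise (1.82 as log2, with a standard error of 0.16) had an adjusted p of 0.0346. CD40, the receptor through which T cells activate antigen-presenting cells, had 10.39, 10.53 and 10.41 in HPM, against 9.29, 9.02 and 9.20 in HPC. It rose 2.42-fold, and NGFR and CD40 were the only 2 of 21 measured genes of the TNF ligand and receptor superfamily that passed. CD83, a surface protein best known from mature dendritic cells, had 10.92, 10.83 and 10.58 in HPM, against 9.46, 9.54 and 9.22 in HPC, a 2.58-fold rise. LRRC32, which holds latent TGF-beta at the cell surface, reached 9.47 ± 0.02 in HPM and 7.73 ± 0.25 in HPC (SD, n = 3 each). NINJ1, a membrane protein that takes part in the rupture of dying cells, rose by 1.26.

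A further set of rises concerned enzymes and transcription regulators. SOD2, the mitochondrial superoxide dismutase and a classical NF-kB target, had 13.03, 13.03 and 12.78 in HPM, against 11.46, 11.30 and 11.61 in HPC. Its log2 fold change was 1.49 (standard error 0.16, adjusted p = 0.0362 from limma), whereas its other feature, at a higher intensity, had 0.62 and did not pass (adjusted p = 0.252). The features of SOD2 therefore disagreed in size though not in sign. GLRX, a glutaredoxin that removes glutathione from proteins, rose by 1.41, and the histone gene H2BC21 by 1.56. PIM1, a survival kinase gene induced by STAT factors, rose by 1.07 and NR1D1, a repressor of the circadian clock, by 1.16. Also among the 15 largest rises were N4BP3 (1.47), BCAS3 (1.36), NPTX1 (1.31), which encodes a secreted pentraxin, and NPHS1 (1.26), known from the slit diaphragm of the kidney.

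PLAU, the urokinase plasminogen activator, a protease that helps cells to invade, was among the brightest genes that rose. Its log2 intensities were 14.82, 14.44 and 14.60 in HPM, against 13.37, 13.43 and 13.51 in HPC. It rose 2.27-fold (adjusted p = 0.046 from limma), and it was the only one of 14 measured matrix protease and inhibitor genes that passed. Of the EGF receptor gene EGFR, 1 feature rose by 1.23 (adjusted p = 0.047), while its other 3, at higher intensities, had log2 fold changes of 0.23 to 0.34 and did not pass.

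The largest falls included regulators of RNA processing. PCF11, a subunit of the machinery that cleaves the 3′ end of new transcripts, had 5.64, 5.70 and 5.47 in HPM, against 8.59, 8.26 and 7.94 in HPC. The log2 fold change was -2.66 (standard error 0.20, adjusted p = 0.0346 from limma), but in HPM the gene lay above only 1.15% to 2.08% of the features, so that the fold is imprecise. SFPQ, a splicing factor of nuclear paraspeckles, had 8.00, 7.68 and 7.80 in HPM, against 9.99, 10.05 and 9.77 in HPC, and fell 4.32-fold. PPP1R10, a regulatory subunit of nuclear protein phosphatase, had 9.53, 8.61 and 9.31 in HPM, against 11.02, 10.99 and 11.02 in HPC. Its HPM arrays spread widely and still lay below every HPC array. NOP56, a core protein of box C/D ribonucleoproteins that guide ribosomal RNA modification, fell by 1.20, and NXF1, the main export receptor of mRNA, by 0.94.

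Signalling genes made up a further part of the falls. DKK1, a secreted inhibitor of Wnt signalling, had 9.68, 9.42 and 10.13 in HPM, against 12.19, 11.99 and 12.04 in HPC, a 5.02-fold fall. RCAN1, a feedback inhibitor of calcineurin, had 9.22, 9.65 and 9.32 in HPM, against 11.34, 11.47 and 11.31 in HPC, a 3.94-fold fall. For both genes no array of one group came near the other group. LBH, a transcription cofactor gene that responds to Wnt, fell by 2.62, PCDH7, a protocadherin, by 2.05, and ARHGAP26, a GTPase-activating protein, by 1.84. In HPM these 3 were dim, at percentiles of at most 11.9, which leaves their folds uncertain. A second feature of PCDH7 had -0.83 and did not pass. TGM2, the tissue transglutaminase that cross-links matrix proteins, fell by 1.71 in 1 feature and had -1.38 (adjusted p = 0.055) in its brighter one.

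Mitotic genes were lower throughout. All 33 measured members had lower means in HPM than in HPC. Of them 9 fell, and 29 reached an unadjusted p under 0.05 on the lower side, as did 12.5% of all features. In 29 members every HPM array lay below every HPC array, which held for 16.4% of all features. The median intensity over the list was 10.96, 10.94 and 10.97 in the HPM arrays, against 11.79, 11.68 and 11.72 in the HPC arrays. The spread within each group was small beside the gap, and the median log2 fold change was -0.90. With the replicate block 0 of the 33 passed limma.

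CCNB1, the cyclin that drives entry into mitosis, had 11.27, 11.46 and 11.48 in HPM, against 13.21, 13.27 and 13.20 in HPC. It fell 3.54-fold (log2 fold change -1.83, standard error 0.14, adjusted p = 0.0346 from limma), the largest fall in the list. MKI67, the proliferation antigen Ki-67, had 9.61, 9.54 and 9.67 in HPM, against 11.32, 10.98 and 10.89 in HPC, and fell 2.75-fold. The other members that fell were the kinesins KIF20A (-1.53) and CENPE (-1.51), the securin PTTG1 (-1.29), the kinases AURKA (-1.18) and PLK1 (-1.14), CDC20, an activator of the anaphase-promoting complex (-1.16), and the cyclin CCNB2 (-0.91). PLK1 and CCNB2 passed narrowly. Outside the list, the largest falls also included GTSE1 (-1.98), a microtubule-binding protein of G2 and mitosis, the spindle protein ASPM (-1.62) and the helicase PIF1 (-1.66). The smallest change among the 33 was -0.17.

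The promoters of CCNB1 and CDC20 are printed because genes of late mitosis are known for CCAAT boxes, the letters read by the factor NF-Y. Both hold 2 of them close to the start, in capitals below, in the 300 bases from 250 before to 50 after it (RefSeq, GRCh38.p14; CCNB1 at chr5:69166900-69167199 on the plus strand and CDC20 at chr1:43358731-43359030 on the plus strand).
CCNB1: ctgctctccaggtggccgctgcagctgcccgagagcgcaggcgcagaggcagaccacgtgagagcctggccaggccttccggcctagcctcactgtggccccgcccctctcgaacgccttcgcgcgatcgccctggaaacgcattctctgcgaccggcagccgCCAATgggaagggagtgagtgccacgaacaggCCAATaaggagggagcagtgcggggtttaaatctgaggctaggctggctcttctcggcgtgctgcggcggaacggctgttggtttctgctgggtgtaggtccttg
CDC20: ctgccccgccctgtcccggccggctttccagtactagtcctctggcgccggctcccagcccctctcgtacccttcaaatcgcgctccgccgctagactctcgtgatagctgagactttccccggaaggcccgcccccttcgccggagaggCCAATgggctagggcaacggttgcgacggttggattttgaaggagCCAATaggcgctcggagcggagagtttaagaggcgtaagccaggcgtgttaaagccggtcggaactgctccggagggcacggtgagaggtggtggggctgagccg
Of 26 mitotic genes with a promoter in the table, 20 held CCAAT on either strand (76.9%), and so did 7 of the 8 among them that fell. Of all 35116 promoters of this length, 34.6% did. The share was 47.4% among all genes that fell, and it was higher than in mitotic genes in the lists of the unfolded protein response (89.5% of 19) and of cholesterol synthesis (83.3% of 18). The match of letters is a description and says nothing of binding in these cells.

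Genes of S-phase entry and DNA replication (the G1-S list) were lower to a smaller degree. FEN1, the flap endonuclease that trims Okazaki fragments, was the only one of 31 measured genes that fell, with 10.36, 10.72 and 10.75 in HPM against 11.65, 12.09 and 12.08 in HPC. At an unadjusted p under 0.05 a further 13 had lower values and none higher, and the median over the list was -0.37. GMNN, the inhibitor of replication licensing, had -0.87 (adjusted p = 0.0558), and the sliding clamp PCNA had -0.52 (adjusted p = 0.118). Among 18 inhibitors of cyclin-dependent kinases and p53 targets, 0 passed limma and 0 reached an unadjusted p under 0.05.

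Genes of lipid synthesis were lower as well. Of 14 measured fatty acid synthesis genes, FADS2, FADS1 and FASN fell, and the median log2 fold change of the list was -0.55. FADS2, the delta-6 desaturase of polyunsaturated fatty acids, had 10.88, 11.10 and 11 in HPM, against 12.62, 12.94 and 12.50 in HPC. This was a 3.24-fold fall (standard error 0.17 on the log2 scale, adjusted p = 0.0362 from limma). FADS1, the delta-5 desaturase, fell 2.31-fold and FASN, the fatty acid synthase, 2.23-fold. ACLY, which makes cytosolic acetyl-CoA, had -0.91 (adjusted p = 0.0515), and SREBF1, a master regulator of these genes, had -0.75 (adjusted p = 0.122).

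In cholesterol synthesis, 24 of 25 measured genes had lower means in HPM, 14 reached an unadjusted p under 0.05 on that side and 1 fell. That gene was HSD17B7, an enzyme of the sterol pathway, with 10.29, 10.45 and 10.28 in HPM against 11.14, 11.37 and 11.26 in HPC. It fell 1.88-fold, and the groups of HSD17B7 did not overlap (adjusted p = 0.0481 from limma). The median of the list was -0.53.

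**Figure D2:**
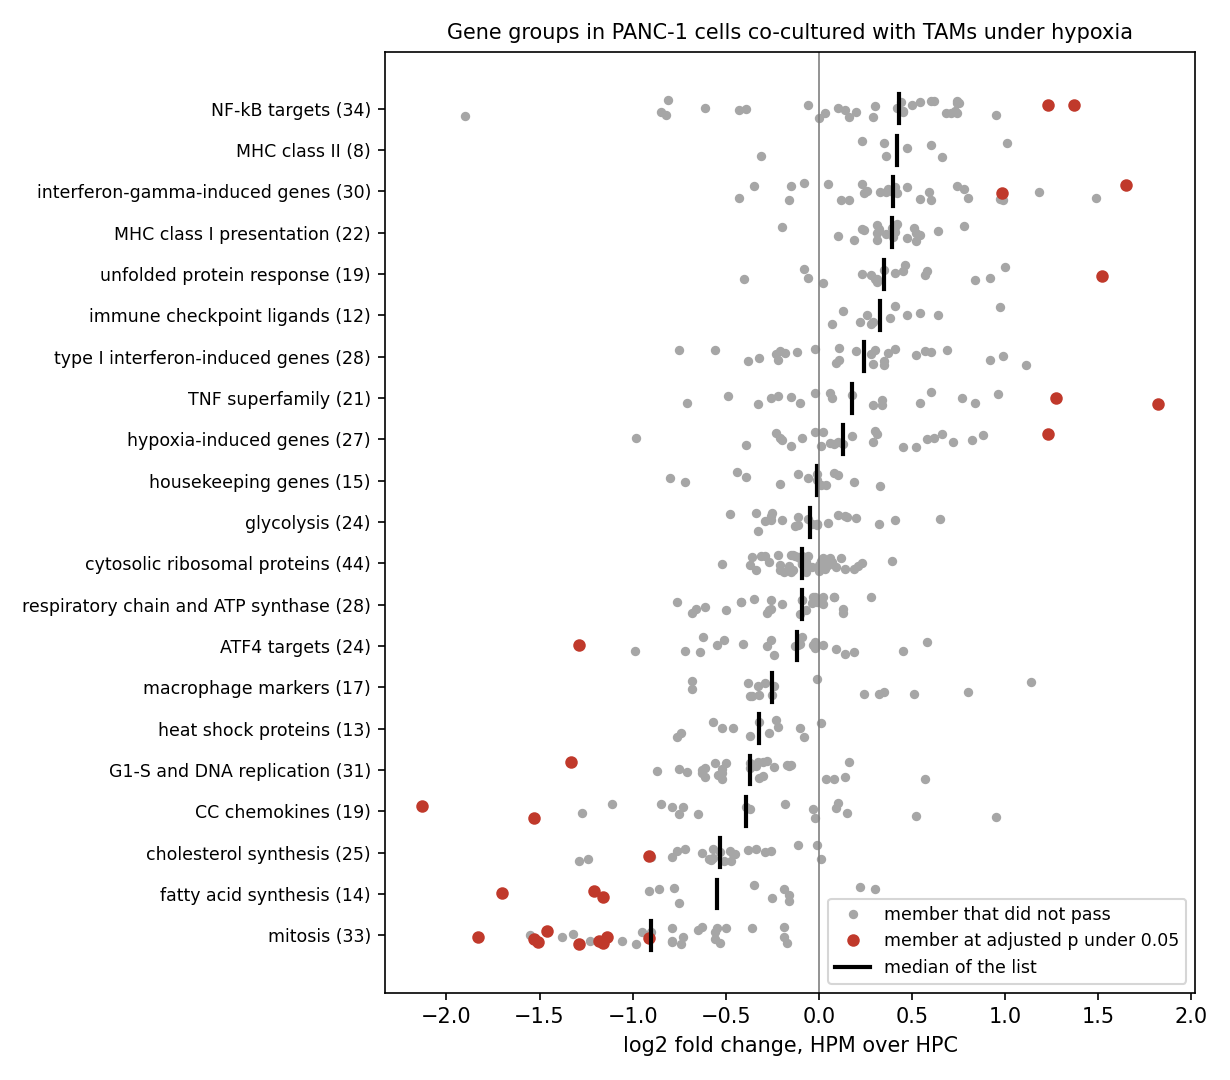
Log2 fold change of HPM over HPC (x axis) for the measured members of 21 gene groups, ordered by their median, with the number of members in brackets. Each point is a gene, red where it passed and grey where it did not, and the black bar is the median, which ran from 0.43 in NF-kB targets to -0.90 in mitotic genes.

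On the side of the rises, genes induced by interferon-gamma were led by a transcription factor. IRF1, which switches on antigen presentation genes, had 13.60, 13.83 and 13.58 in HPM, against 12.12, 11.94 and 11.97 in HPC. It rose 3.15-fold (log2 fold change 1.65, standard error 0.15, adjusted p = 0.0346 from limma). In all, 2 of 30 measured members rose. A further 13 were higher at an unadjusted p under 0.05, against 8.00% of all features, none was lower, and the median was 0.40.

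Among the members that did not pass were GBP2, an interferon-induced GTPase, with 10.19, 8.78 and 8.71 in HPM against 8.17, 7.75 and 7.28 in HPC. The HPM arrays of GBP2 were widely scattered (log2 fold change 1.49, adjusted p = 0.135 from limma). TAP1, the peptide transporter of antigen presentation, had 0.78 (adjusted p = 0.0751). CD274, which encodes the checkpoint ligand PD-L1, had 0.97 (adjusted p = 0.108) and was dim, at or below the percentile of 13.8 in every array. Among 22 genes of MHC class I presentation 0 passed and 10 were higher at an unadjusted p under 0.05, with a median of 0.39. In 13 of them every HPM array lay above every HPC array, which held for 11.3% of all features. All 12 measured checkpoint ligands had higher means in HPM, and 0 of them passed limma while 4 reached an unadjusted p under 0.05. Genes of the type I interferon response had a median of 0.24 over 28 members, of which 0 passed, 5 were higher and 2 lower at an unadjusted p under 0.05.

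Of 34 measured NF-kB targets, each counted by its brightest feature, CD83 and NFKBIA rose and 0 fell. In all, 14 were higher and 6 lower at an unadjusted p under 0.05, and the median was 0.43. NFKBIA, the inhibitor that NF-kB itself induces, had 13.15, 13.39 and 13.68 in HPM, against 12.03, 12.11 and 12.39 in HPC, a 2.34-fold rise (adjusted p = 0.0494 from limma). The subunit genes NFKB2 (0.73) and RELB (0.75) had adjusted p of 0.0637 and 0.0815. The 6 on the lower side were secreted proteins, namely the cytokine IL1B (-1.90) and the chemokines CXCL1 (-0.82), CXCL2 (-0.81), CCL20 (-0.85), CXCL8 (-0.43) and CCL2 (-0.39), and 0 of the 6 passed. IL1B had 7.66, 6.69 and 8.23 in HPM, against 9.22, 9.44 and 9.61 in HPC (adjusted p = 0.0655).

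The promoters of IRF1 and NFKBIA, both among the rises, are printed for the letters that the factors of these groups read (RefSeq, GRCh38.p14; IRF1 at chr5:132490724-132491023 and NFKBIA at chr14:35404700-35404999, both on the minus strand and given in the direction of the gene). In IRF1 the capitals mark a GAS element (TTCNNNGAA), a site of STAT factors, followed by an NF-kB motif. In NFKBIA they mark an ISRE-like match (GAAANNGAA, here on the opposite strand), followed by an NF-kB motif.
IRF1: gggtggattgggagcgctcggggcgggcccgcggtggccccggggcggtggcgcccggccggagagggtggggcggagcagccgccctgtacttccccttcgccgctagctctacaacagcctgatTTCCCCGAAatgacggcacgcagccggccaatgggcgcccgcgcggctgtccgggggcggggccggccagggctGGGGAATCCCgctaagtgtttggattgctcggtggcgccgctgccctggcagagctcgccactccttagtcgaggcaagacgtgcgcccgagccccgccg
NFKBIA: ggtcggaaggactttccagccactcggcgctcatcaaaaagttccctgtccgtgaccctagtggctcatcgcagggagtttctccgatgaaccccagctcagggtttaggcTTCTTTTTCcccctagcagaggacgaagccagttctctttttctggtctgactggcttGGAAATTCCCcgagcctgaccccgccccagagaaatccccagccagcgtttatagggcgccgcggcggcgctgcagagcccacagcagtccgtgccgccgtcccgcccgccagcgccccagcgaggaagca
Searched on both strands, the NF-kB motif was in 53.8% of 26 NF-kB target promoters, in 21.6% of 37 promoters of genes that rose and in 11.3% of all 35116 promoters. The GAS letters were in 21.1% of 19 promoters of interferon-gamma genes and in 7.66% of all, and the ISRE-like letters in 57.9% and 8.11%. Of the 37 promoters of genes that rose, 5.41% held the ISRE-like letters and 2.70% the GAS letters. These lists were drawn up for the factors concerned, so that the shares are a description.

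Chemokine genes of the CC family were mostly lower, but many were dim. The median percentile of the list was 19.1 to 20.7 in an HPM array and 26.5 to 30.4 in an HPC array. CCL22, which attracts regulatory T cells, had 9.55, 9.26 and 9.26 in HPM, against 10.98, 10.83 and 10.84 in HPC, a 2.88-fold fall (adjusted p = 0.0362 from limma). CCL3L1, a near-identical copy of CCL3 whose probes may not tell the copies apart, had 6.52, 6.03 and 6.0 in HPM, against 8.56, 8.40 and 7.99 in HPC, and fell 4.39-fold. Its HPM arrays placed it at percentiles of 3.04 to 8.08. CCL4 had -1.27 (adjusted p = 0.0563 from limma) and was likewise dim in HPM, at percentiles of 3.76 to 9.16. CCL5, which attracts T cells and monocytes, stood on the other side with 13.47, 13.68 and 13.22 in HPM, against 12.34, 12.76 and 12.42 in HPC (log2 fold change 0.95, adjusted p = 0.0655). Of 19 measured members 14 had lower means, and CCL17 and CCL18 were not analysed here. CSF1, the growth factor of macrophages, had 0.78 to 0.94 in its 4 features, of which 0 passed (adjusted p of 0.0544 or more).

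In the unfolded protein response, which expands the chaperones of the endoplasmic reticulum, CRELD2 rose. This secreted ER protein had 12.31, 12.58 and 12.37 in HPM, against 10.86, 10.88 and 10.96 in HPC, a 2.87-fold rise (standard error 0.14 on the log2 scale, adjusted p = 0.0362 from limma). HSPA5, the chaperone BiP, had 1.00 (adjusted p = 0.053), and 8 of 19 members were higher and 1, XBP1, lower at an unadjusted p under 0.05. The list median was 0.35. ATF4 targets, which serve amino acid supply, had a median of -0.12 over 24 members. CHAC1, which degrades glutathione, fell there, with 10.12, 10.25 and 10.25 in HPM against 11.48, 11.63 and 11.37 in HPC. Of 13 heat shock protein genes 0 passed, the median was -0.32, and at an unadjusted p under 0.05 there were 4 with lower values.

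Of 27 measured hypoxia-induced genes only ANKRD37, a HIF target, rose, with 10.82, 10.91 and 10.86 in HPM against 9.50, 9.76 and 9.63 in HPC. This was a 2.35-fold rise (adjusted p = 0.0362 from limma). HILPDA, a lipid droplet protein induced by HIF, had 14.04, 14.33 and 14.03 in HPM, against 13.30, 13.41 and 13.04 in HPC (log2 fold change 0.88, adjusted p = 0.0624). Both groups were separate for HILPDA, but it did not pass. STC2, a glycoprotein hormone induced by low oxygen and ER stress, had -0.98 (adjusted p = 0.0563). In all, 8 members were higher and 1 lower at an unadjusted p under 0.05, and the median was 0.13. The 24 glycolysis genes had a median of -0.05, with 0 past the test, 1 higher and 1 lower at an unadjusted p under 0.05.

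The promoter of ANKRD37 (RefSeq, GRCh38.p14, chr4:185396591-185396890, plus strand) is printed for the core letters of the HIF site, ACGTG or GCGTG, which it holds in 3 matches marked in capitals. A pair of them overlap on opposite strands.
ANKRD37: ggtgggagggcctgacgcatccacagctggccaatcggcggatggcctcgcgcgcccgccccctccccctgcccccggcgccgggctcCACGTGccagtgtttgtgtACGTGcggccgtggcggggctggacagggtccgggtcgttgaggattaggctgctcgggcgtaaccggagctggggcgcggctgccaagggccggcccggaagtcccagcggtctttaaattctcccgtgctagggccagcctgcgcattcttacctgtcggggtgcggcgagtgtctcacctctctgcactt
These short letters were in 90.0% of 20 promoters of hypoxia-induced genes and in 48.4% of all promoters. The share was not particular to that list, with 94.7% in the unfolded protein response, 83.3% in cholesterol synthesis and 69.2% in mitotic genes. They were also in 59.5% of the promoters of genes that rose and in 73.7% of the 95 of genes that fell.

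Several groups stayed near the median of all features. Cytosolic ribosomal protein genes had a median of -0.09 over 44 members, the respiratory chain and ATP synthase -0.09 over 28, housekeeping genes -0.01 over 15, epithelial genes -0.04 over 25 and mesenchymal genes 0.09 over 24. Of these groups 0 members passed limma. At an unadjusted p under 0.05, 6 respiratory chain genes were lower and none higher, and 4 mesenchymal genes were higher and none lower. In the TGF-beta list the receptor gene TGFBR2 had -0.89 (adjusted p = 0.055).

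Over 17 measured markers of macrophages, which shared the transwell, the median log2 fold change was -0.25, and 0 passed. Their median percentile among the features was 10.2 to 12.8 in an HPM array and 15 to 16.5 in an HPC array. CD68, a lysosomal protein that many cell types make, was the bright exception, with 12.37 ± 0.04 in HPM and 11.57 ± 0.08 in HPC (SD, n = 3 each, adjusted p = 0.0515 from limma). ADGRE1, an adhesion receptor of macrophages, had 1.14 (adjusted p = 0.0638). The summed intensity of the 17 markers on the log2 scale was 12.86 to 12.89 in HPM and 12.31 to 12.42 in HPC. Without CD68 it was 11 to 11.17 in HPM and 10.93 to 11.27 in HPC, so that the groups overlapped. CD14, LYZ, C1QB and ITGAM were at or below the percentile of 18.3 in every array, and PTPRC, CSF1R and MRC1 were not analysed here. The summed intensity of 13 leukocyte and lymphocyte markers was 11.56 to 11.69 in HPM and 11.28 to 11.32 in HPC, with IL2RG, the common cytokine receptor chain, at 0.99 (adjusted p = 0.0563). CD40 and CD83 are also genes of immune cells, as are CCL22, CCL3L1, CCL4 and IL1B, which had lower values in HPM. Among 12 measured genes of alternatively activated macrophages, 8 had higher and 4 lower means, with a median of 0.11, and 1, CCL22, fell. Among 5 of classically activated macrophages, 2 had higher and 3 lower means, with a median of -0.61, and 0 passed. The part of immune cells in these differences was not tested.

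The same comparison under normoxia called 8 features (0.0232%), of which 2 were also called under hypoxia. NPTX1 rose under hypoxia by 1.31 and had 2.73 under normoxia, and CCL22 fell under both. Features that rose under hypoxia had a median of 1.17 there and of 0.38 under normoxia, where 96 of the 120 were positive. For the falls the medians were -1.17 and -0.37, and 167 of the 233 were negative under normoxia. Over all features 49.1% were positive under normoxia. The features were selected for passing in the hypoxia arrays, which enlarges their medians there. The smaller medians under normoxia therefore cannot show that the response was weaker.

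**Figure D3:**
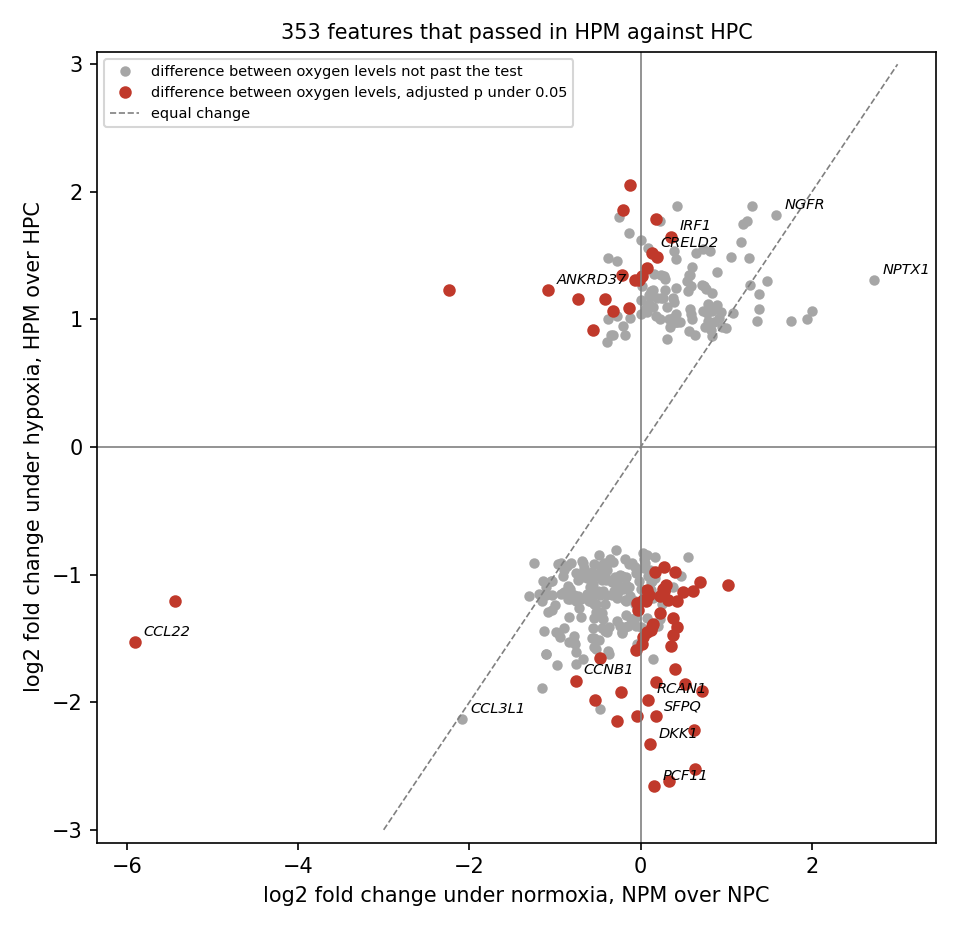
Log2 fold change of HPM over HPC under hypoxia (y axis) against that of NPM over NPC under normoxia (x axis) for the 353 features that passed under hypoxia. Red points mark features whose difference between the oxygen levels passed as well, and 18 of these 69 lie in the upper part of the plot and the rest in the lower part.

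Whether the response to TAMs differed between the oxygen levels was tested as an interaction over the 12 arrays. By limma, 156 features passed (0.452%), 60 with a higher and 96 with a lower log2 fold change under hypoxia than under normoxia. Of them 69 were also called in HPM against HPC, which is 44.2% of the interaction calls and 19.5% of the calls under hypoxia. The interaction includes the same hypoxia arrays that gave those calls, so that an overlap in the same direction was partly built in. With the replicate block within oxygen level, 15 and 16 features passed. The genes that responded under hypoxia with little change under normoxia included IRF1 (1.65 under hypoxia, 0.36 under normoxia, adjusted p of the difference = 0.0342), CRELD2 (1.52 and 0.13, adjusted p = 0.029) and DKK1 (-2.33 and 0.11, adjusted p = 0.00547). SFPQ had -2.11 under hypoxia and 0.18 under normoxia (adjusted p = 0.00511), and RCAN1 had -1.98 and 0.09 (adjusted p = 0.00547). IRF1 ran against its list, since the 30 interferon-gamma genes had a median of 0.40 under hypoxia and 0.85 under normoxia, with 15 and 21 of them higher at an unadjusted p under 0.05.

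Of 27 hypoxia-induced genes, 4 had a difference between the oxygen levels that passed, 3 positive and 1 negative, while the list's median was 0.13 under hypoxia and 0.03 under normoxia. ANKRD37 had 1.23 under hypoxia and -1.08 under normoxia (adjusted p of the difference = 0.0116 from limma), HILPDA had 0.88 and -1.39 (adjusted p = 0.00266), and DDIT4, an inhibitor of mTORC1, had 0.58 and -0.89 (adjusted p = 0.029). STC2 went the other way with -0.98 under hypoxia and 0.55 under normoxia (adjusted p = 0.029). Of these 4 genes only ANKRD37 passed within an oxygen level, and it did so under hypoxia. Mitotic genes had a median of -0.90 under hypoxia and -0.81 under normoxia, and CCNB1 was the only one of the 33 whose difference passed. G1-S genes had a median of -0.37 under hypoxia and -0.98 under normoxia, with 0 differences past the adjusted threshold.

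VCAM1, the adhesion molecule for leukocyte integrins, was at the bottom of the scale in both hypoxia groups. It had 6.16, 5.73 and 5.25 in HPM, against 5.02, 6.69 and 5.00 in HPC. The groups overlapped, and HPC replicate 2 was the highest of the 6 arrays. The log2 fold change was 0.14 with a standard error of 0.50 (adjusted p = 0.909 from limma). Under normoxia VCAM1 had 2.82, which passed (adjusted p = 0.0145). Its NPC arrays were likewise dim, at 5.21, 5.01 and 4.99, and the size of 2.82 is uncertain. The difference between oxygen levels did not pass (adjusted p = 0.0775). ICAM1, a related adhesion molecule, was bright throughout, with 15.31, 14.94 and 15.31 in HPM, against 14.75, 14.16 and 15.16 in HPC (log2 fold change 0.50, adjusted p = 0.372). CD74, which guides MHC class II molecules to their peptides, had 0.66 (adjusted p = 0.15) in its brightest feature. Its other features had 1.28 (adjusted p = 0.055), with separate groups, and 0.52 (adjusted p = 0.39), with groups that overlapped.

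CHI3L1, a secreted chitinase-like glycoprotein, had overlapping groups under hypoxia. It had 7.89, 8.10 and 8.35 in HPM, against 8.13, 7.74 and 8.46 in HPC. The log2 fold change was 0.00 (standard error 0.23), against -4.44 under normoxia, and the difference of 4.45 passed (adjusted p = 0.000587 from limma). In NPM it had only 4.67, 5.10 and 4.77, as dim as VCAM1 in its lowest arrays, so that the sizes of the normoxia fold and of the difference are uncertain. LCP1, an actin-bundling protein of leukocytes, had -0.32 under hypoxia and -3.24 under normoxia (adjusted p of the difference = 0.0146), but was at percentiles of at most 1.72 in all 6 hypoxia arrays. CCL22 fell by 1.53 under hypoxia, against a fall of 5.90 under normoxia (adjusted p of the difference = 0.00451). Its NPM arrays were likewise dim, at 6.07, 5.96 and 4.71, and the size of 5.90 is uncertain.

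**Figure D4:**
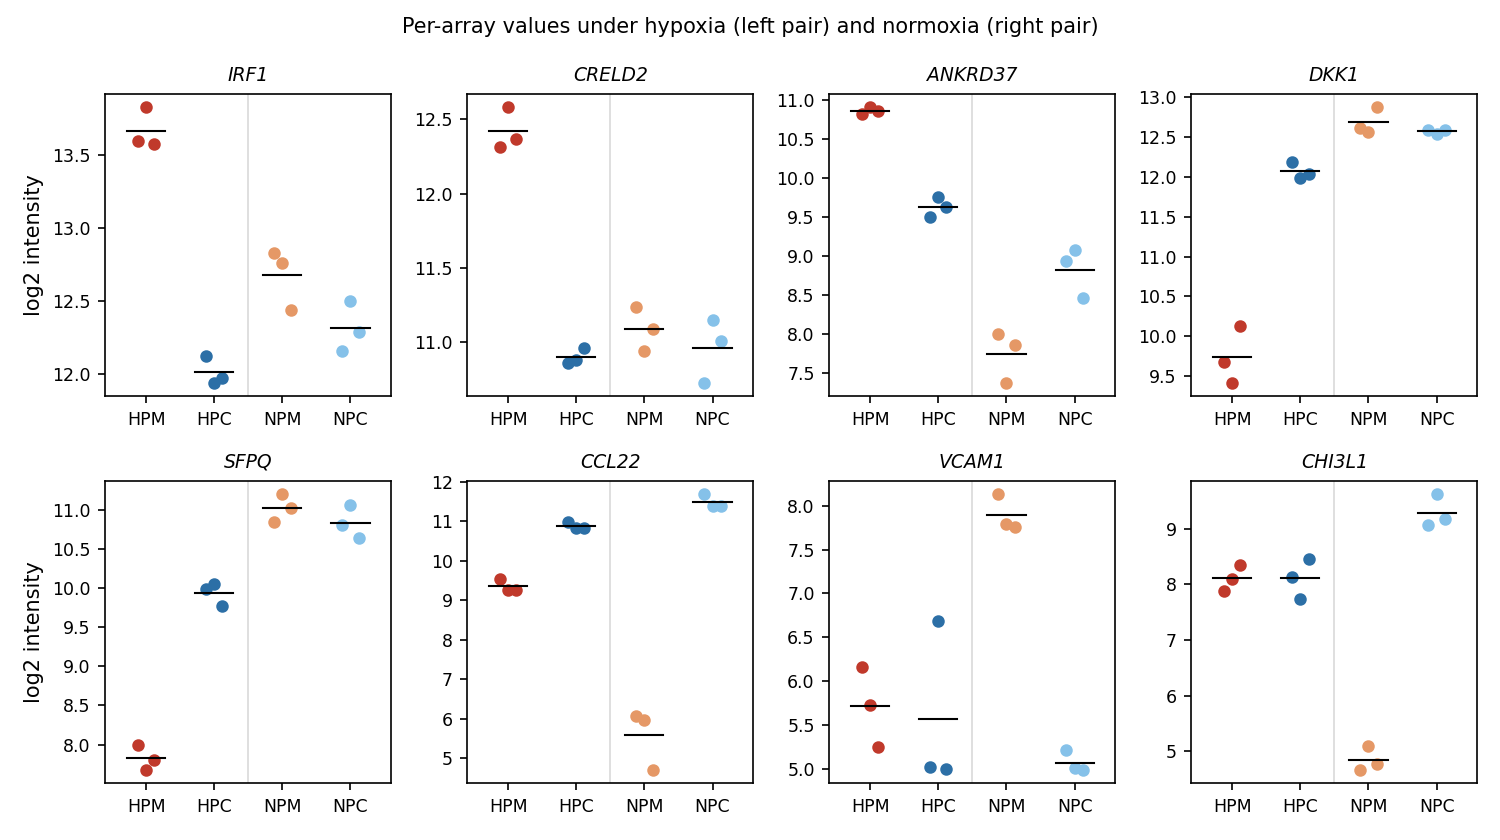
Log2 intensity (y axis, scaled for each gene) of 8 genes in every array of the HPM, HPC, NPM and NPC groups, with points for arrays and bars for group means. IRF1, CRELD2 and ANKRD37 are highest in HPM, DKK1 and SFPQ are lowest there, and VCAM1 and CHI3L1 overlap between HPM and HPC.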

How the data were processed

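RNA of PANC-1 cells from 12 cultures (4 groups, 3 each) was hybridised to 1-colour arrays. The authors scanned the arrays, quantile-normalised them and summarised probes to features by RMA, and the deposited intensity values, on a linear scale, were taken to log2 here without further normalization. The array is described in conflicting ways in the sources (a NimbleGen and an Arraystar design), and the table holds 34487 features. Of these, 14675 carried a gene name (13422 genes, 14133 of the features through the platform's probe table) and 19812 were left unnamed. The number of arrays, not depth, limits the precision, and an exact permutation test of 3 against 3 arrays cannot go below a two-sided p of 0.1, so that tests rested on the fit across all features.

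HPM was compared with HPC by limma 3.58.1 (R 4.3.3; lmFit and eBayes on the 6 arrays, Benjamini-Hochberg adjustment over all features, threshold 0.05). The difference between oxygen levels was the interaction term over 12 arrays. In the gene lists each gene was counted by its brightest feature, the one with the highest mean over the 12 arrays. Where a gene described by its own values had several features, others are given beside it for the genes in which they differed in call or size. The genes named were the 15 largest rises and falls with a brighter mean above the 25th percentile and no overlap of groups, up to 5 members of each of 43 gene lists with the smallest p, the genes called under normoxia, the 10 leading interaction genes and VCAM1, ICAM1, CCL22, CHI3L1, LCP1, CD74 and NPTX1. Some of these genes are not reported here. Other genes named in the text were picked after their values were seen. The members and lists were chosen with earlier results of these data known. The fit was tested on simulated data.

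Residuals of same-numbered HPM and HPC arrays correlated at 0.502, 0.267 and 0.543, all over the limit of 0.1, so that the numbers were taken to pair the samples. Other pairs had -0.455 to -0.031. Residuals were taken from group means, so that positive values for same-numbered pairs make the other pairs negative on balance. Alternatives were this block, the normalization, a filter on dim features, all 12 arrays, the variance model, averaged features, the methods' t-test and leaving out arrays. Promoters and their motifs came from RefSeq (GRCh38.p14).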

Additional observations from a re-analysis of the deposited data

Results flagged for a closer look

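The following genes had a log2 fold change of co-culture under hypoxia (HPM minus HPC) that differed from that under normoxia (NPM minus NPC). They were called by the interaction test in limma, without the replicate block, at an adjusted p under 0.05. That fit called 60 features with a positive and 96 with a negative difference. With the replicate block within oxygen level the counts were 15 and 16, and the genes below were not followed there. Values are the difference, hypoxia minus normoxia, on the log2 scale. It was positive for CHI3L1 (4.45), CCL22 (4.38), LCP1 (2.92), ANKRD37 (2.32), HILPDA (2.28), NR1D1 (1.58), DDIT4 (1.47), PIM1 (1.40), CRELD2 (1.39) and IRF1 (1.30). In CHI3L1, CCL22 and LCP1 the value comes from a lower mean in NPM than in NPC, with normoxia fold changes of -4.44, -5.90 and -3.24. All 3 were very dim in NPM, which leaves the size of these values uncertain.

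Among genes that fell under hypoxia, the difference was negative for LBH (-2.95), PCF11 (-2.81), DKK1 (-2.44), PPP1R10 (-2.38), SFPQ (-2.29), RCAN1 (-2.06), ARHGAP26 (-2.01), GTSE1 (-1.44), NOP56 (-1.23), NXF1 (-1.22) and CCNB1 (-1.07). It was also negative for UBD (-1.89), STC2 (-1.53), MAT2A (-1.43), MAX (-1.41), CFB (-1.32), TGFBR2 (-1.21) and CLDN1 (-1.16), of which 0 passed in HPM against HPC. CFB, a complement factor, had 0.74 under hypoxia and 2.06 under normoxia, and UBD, a ubiquitin-like protein, had -0.35 and 1.55. The adjusted p of the difference was narrow for LBH (0.04998). MAX has other features with differences of -1.48 (adjusted p = 0.0146 from limma), which passed, and -0.17 (adjusted p = 0.906), which did not. Under hypoxia these features had log2 fold changes of -0.86 and 0.07.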

How the results depend on the processing

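The calls in HPM against HPC depended on the fit. With the replicate block in the 6-array fit, 0 features were called higher and 0 lower by limma (smallest adjusted p 0.0627), 0 mitotic genes passed, and 0 of the 50 called genes among the 73 named kept their call. Leaving out any one array of the 6 gave 0 and 0 features (smallest adjusted p 0.107 to 0.197, with 2054 to 2594 higher and 3016 to 4140 lower at an unadjusted p under 0.05) and 0 mitotic genes, and so did leaving out both arrays numbered 3. Without those 2 arrays, 9 G1-S genes were lower, and 5 MHC class I and 5 unfolded protein response genes were higher, at an unadjusted p under 0.05.

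Counts of features higher and lower, with mitotic genes that fell, were 1031, 1861 and 25 in the 12-array fit with a replicate block within oxygen level, 632, 1253 and 20 in the 12-array fit without it, 823, 1416 and 26 with trend and robust settings, and 652, 1135 and 24 without features under the 25th percentile. The methods' t-test gave 96 higher, 135 lower and 2 mitotic genes. Only 119 of the 353 calls were among its calls, and 23 of the 50 called genes among the 73 named kept their call. With arrays centred on their median or with quantile normalization repeated, 5 mitotic genes fell. The 13 unfolded protein response genes with trend and robust settings and the fatty acid median of -0.75 without dim features also differed from the main values.

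In the interaction, 15 and 16 features passed with the replicate block, 131 and 232 with trend and robust settings, 115 and 196 without dim features, and 7 to 26 and 14 to 56 when any one of the 12 arrays was left out. Leaving out one array moved the mitotic median between -0.91 and -0.84 and the MHC class I count between 5 and 8. CHI3L1 changed sign (-0.18 to 0.18, with -0.18 without HPC replicate 2 and -0.12 without HPM replicate 3), as did VCAM1 (-0.15 to 0.70, with -0.08 without HPM replicate 1, -0.13 without HPC replicate 1 and -0.15 without HPC replicate 3). Of the 73 genes followed over the settings, no other changed sign in a setting that gave it a value. For 10 of them the setting without features under the 25th percentile gave none. The cause of these shifts was not tested.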

Other observations

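Further genes that fell in HPM against HPC serve RNA processing and ribosome assembly, and they were picked after their values were seen, with no test of the group. NOP58, a partner of NOP56 in box C/D ribonucleoproteins, had 11.14, 11.11 and 11.29 in HPM, against 12.10, 12.42 and 12.11 in HPC. SRSF3, a splicing factor, had 10.50, 10.63 and 10.83 in HPM, against 11.65, 11.97 and 11.96 in HPC. SRRT, which links the cap-binding complex to RNA processing, fell by 1.01, and the ribosome biogenesis factors RRS1 and RRP15 fell by 1.40 and 0.90. In each of these genes the groups did not overlap, as in all 353 features that passed, so that this adds nothing to the calls. EZH2, the methyltransferase of histone H3 in Polycomb silencing, had 9.96, 9.93 and 9.95 in HPM, against 10.92, 11.02 and 10.87 in HPC, and CDK6, a kinase of G1, fell by 0.91. IGF2, a growth factor, rose in both of its features that passed, by 1.11 and 1.07.

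Immediate early genes were split, with 0 of 23 past the adjusted threshold by limma, 5 higher and 6 lower at an unadjusted p under 0.05. DUSP5, a phosphatase of ERK, had 0.82 and ZFP36, which destabilises cytokine mRNA, 0.92, while the YAP targets CCN2 and CCN1 had -1.36 and -0.79. Among 17 adhesion molecules 0 passed, and L1CAM had 0.82 (adjusted p = 0.0509) and CD58, a ligand of T cells, -1.13 (adjusted p = 0.053). Of 353 called features 188 had no gene name and are not described.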
